A study of Mus musculus with 8 samples.

Results

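The nuclear genes of oxidative phosphorylation encode most subunits of the mitochondrial respiratory chain and of ATP synthase. They were compared in RNA from mouse kidney between sham operation, uIRI, and uIRI with transplanted MSC, all at day 14. Genes were taken by name from the 34745 genes of the expression table. The names were those that begin with Nduf and continue with a, b, c, s or v, the names Sdha to Sdhd, those that begin with Uqcr, Cox4 to Cox8 or Atp5, and Cyc1 and Cycs. Names that begin with Gm or end in -ps were left out, which removed 1 gene. The rule gave 97 genes on 19 chromosomes, of which 94 are annotated as protein coding and 3 (Atp5k-ps2, Atp5l-ps1 and Atp5l-ps2) as pseudogenes.

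The study had 8 libraries labelled renal tissue, 2 labelled sham, 3 labelled uIRI and 3 labelled uIRI with MSC transplantation (here uIRI+MSC). All carry the genotype label WT, and no strain, age or sex is stated. The abbreviations are not explained in the labels. In kidney research uIRI is commonly read as unilateral ischaemia-reperfusion injury, and MSC as mesenchymal stem (stromal) cells. Where the cells came from, how many were given and when is not stated either. It is not stated whether each library is a separate mouse, so p-values measure only the spread between these samples, which may be technical. Total counts per library ran from 11592986 to 24300112. The markers of proximal tubule, Slc34a1 to Miox in a list of 10, were present in every library, with a summed level of at least 1840 counts per 1000000 counts (CPM).

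As background, complex I (NADH dehydrogenase) and complex II (succinate dehydrogenase) pass electrons to ubiquinone, complex III passes them to cytochrome c, and complex IV (cytochrome c oxidase) passes them to oxygen. Complex V, the ATP synthase, uses the proton gradient that complexes I, III and IV build. The core catalytic subunits of complexes I, III and IV come in part from mitochondrial DNA, while the genes described here are read in the nucleus and their proteins are imported. In the kidney the proximal tubule and the thick ascending limb are rich in mitochondria, because reabsorption of solutes consumes much ATP.

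Enough counts for a test were found for 90 of the 97 genes, all of them protein coding. Each of the 90 had at least 10 counts in some library of every group, and 89 had them in every library, so none entered through a single group. The 7 others were the 3 pseudogenes, with 24, 38 and 1 counts over the 8 libraries, the muscle isoform Cox6a2, with 43 counts, and Cox7b2, Cox8b and Cox8c, which had 0 counts in every library. The tested genes comprised 7 core and 29 supernumerary subunits of complex I, 4 genes of complex II, 9 of complex III, cytochrome c (Cycs), 15 of complex IV, the supercomplex factor Cox7a2l and 15 of complex V. Atp5s and Atp5sl, relatives of the coupling factor, were kept apart, as were the 7 assembly factors of complex I that carry an Ndufaf name. Ndufa4 and Ndufa4l2 were counted with complex IV, to which the Ndufa4 protein belongs despite its name.

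In sham kidney the levels of these genes spanned a wide range. Per kilobase of transcript, Atp5b, the catalytic beta subunit of ATP synthase, was the most abundant, with a mean level of 2200 CPM per kilobase. Atp5a1, its alpha subunit, followed with a level of 1060, and Atp5g3, the main gene for the membrane c subunit, with 985. Cox4i1, Cox6a1 and Cox8a of complex IV came next, at levels of 854, 781 and 764 CPM per kilobase. At the other end, Cox4i2 stood at 1.09, Atp5g2 at 4.57, Cox6b2 at 4.80 and Ndufa4l2 at 4.94 CPM per kilobase. The Ndufaf genes were low as well, with Ndufaf4 at 8.19 and Ndufaf5 at 13.8. The 97 genes together held 1.85 and 1.77% of all counts in the sham libraries, 0.775, 1.04 and 1.00% in uIRI 1, 2 and 3, and 1.23, 1.07 and 0.764% in uIRI+MSC 1, 2 and 3. All 6 injured libraries lay below both sham libraries.

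Setting uIRI against sham asks which of these genes differed in the injured kidney at day 14. Most of them were lower in uIRI across all 5 complexes. In edgeR's quasi-likelihood test with Benjamini-Hochberg adjustment over all tested genes, 71 of the 90 were lower and 2 were higher (Cox6b2 and Ndufa4l2), while 17 did not pass at 0.05. Of all 16576 tested genes, 26.3% were lower and 28.3% higher. The median log2 change was -1.32 over the 90 genes and 0.061 over all tested genes. In 65 of the 90 the log2 change was under -1, a count that was not taken over all tested genes. In 85 of the 90 every uIRI library lay below both sham libraries, which was the case for 36.5% of all tested genes. Fewer cells of a type and less of a transcript per cell cannot be told apart in bulk tissue.

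**Figure D1:**
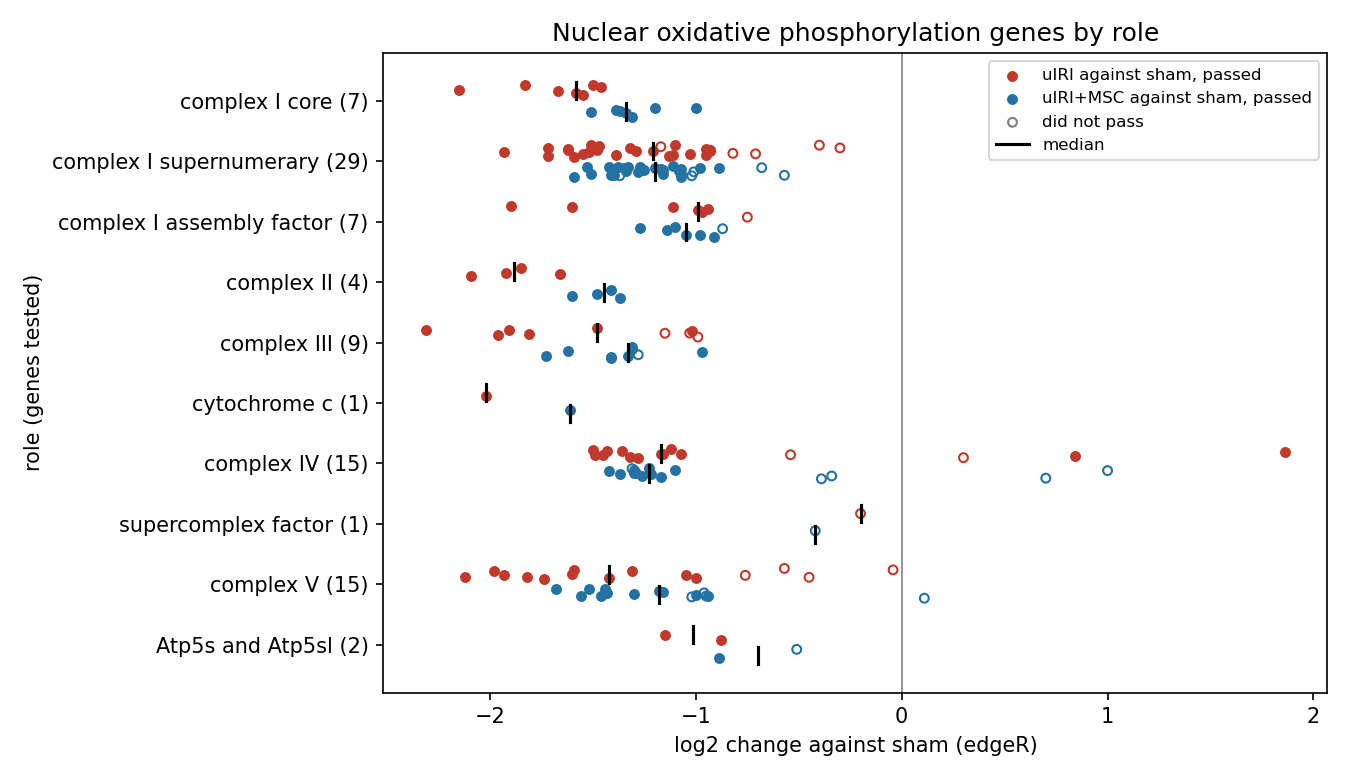
Log2 change against sham (x axis, edgeR) of each of the 90 tested genes by role (y axis, number of genes in brackets), for uIRI in red and uIRI+MSC in blue. Filled points passed at an adjusted p of 0.05, open points did not, and bars are medians; complex II has the lowest median of a complex in uIRI (-1.89), and 2 genes of complex IV passed to the right of 0.

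All 7 core subunits of complex I were lower in uIRI, with a median log2 change of -1.58. Ndufs1, which carries iron-sulfur clusters of the electron path, measured 480 and 461 CPM in sham and 77.6, 128 and 113 CPM in uIRI. The groups were far apart, and uIRI 1 was the lowest library. Its log2 change was -2.15 (SE 0.20, adjusted p = 7.55e-05), the largest fall in complex I. Ndufv1, the subunit that binds NADH, measured 288 and 252 CPM in sham and 69.5, 96.7 and 88.7 CPM in uIRI, again without overlap. Its log2 change was -1.67 (SE 0.29, adjusted p = 0.00143). The smallest fall of a core subunit was that of Ndufv2, at -1.46 (SE 0.14, adjusted p = 9.26e-05).

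Of the 29 supernumerary subunits, which surround the core and are needed for assembly and stability, 23 were lower and none was higher. Their median log2 change was -1.21, and in all 29 the uIRI libraries lay below sham. Ndufa10 was the lowest with a log2 change of -1.93 (SE 0.19, adjusted p = 9.15e-05), followed by Ndufa9 and Ndufb4 at -1.72 each. Ndufa1, Ndufa2, Ndufa3, Ndufa7, Ndufb3 and Ndufs6 did not pass, with log2 values of -0.82, -0.71, -0.30, -0.40, -0.93 and -1.17. Ndufs6 measured 92.6 and 64.3 CPM in sham, 27.1, 40.0 and 37.7 CPM in uIRI and 46.4, 34.4 and 9.83 CPM in uIRI+MSC. Sham and uIRI did not overlap there, but the spread, pooled over the 3 groups, was wide, with an SE of 0.50.

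The 7 Ndufaf factors, which help to put complex I together and are not part of it, had a median log2 change of -0.99, and 6 of them were lower. Ndufaf6 measured 26.2 and 17.9 CPM in sham and 3.67, 7.19 and 6.83 CPM in uIRI, which do not overlap. Its log2 change of -1.90 (SE 0.31, adjusted p = 0.000933) was the lowest of the factors. Ndufaf1 came next at -1.60 (SE 0.15, adjusted p = 7.19e-05), then Ndufaf7 at -1.11, Ndufaf3 at -0.99, Ndufaf2 at -0.97 and Ndufaf5 at -0.94. The call of Ndufaf2 was lost without sham 1, sham 2, uIRI 1 or uIRI 2, with adjusted p-values of 0.0631 to 0.167. Ndufaf4 did not pass, with 32.5 and 27.1 CPM in sham and 20.2, 9.35 and 23.6 CPM in uIRI and a log2 value of -0.75 (SE 0.38, adjusted p = 0.123). Exons of Ndufaf2 overlap a long noncoding RNA on the opposite strand, B230220B15Rik, over 65.6% of their length, and those of Ndufb6 and Ndufa13 overlap Smim27 and Tssk6 over 39.0 and 30.0%. Whether reads were counted by strand is not stated, so the partners of these pairs cannot be told apart. A further list of 43 assembly factors without an Ndufaf name, mostly of the other complexes, had 42 tested genes, of which 31 were lower and 0 higher, with a median of -0.92.

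All 4 genes of complex II were lower in uIRI, with a median log2 change of -1.89. This complex is encoded in the nucleus alone and also serves the tricarboxylic acid cycle. Sdhb, its iron-sulfur subunit, measured 491 and 380 CPM in sham and 79.3, 115 and 113 CPM in uIRI, with no overlap. Its log2 change was -2.09 (SE 0.22, adjusted p = 0.000126). Sdha, the subunit that oxidises succinate, changed by -1.85 (SE 0.20, adjusted p = 0.000143), Sdhc by -1.92 and Sdhd by -1.66, the last 2 being the membrane anchors. The other enzymes of the cycle, in a list of 12 from Cs to Mdh2, were all lower, with a median of -1.71.

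In complex III 6 of 9 genes were lower, with a median log2 change of -1.48. Uqcrfs1, the Rieske iron-sulfur protein, measured 613 and 551 CPM in sham and 88.2, 136 and 129 CPM in uIRI. These values lie far apart, and the log2 change of -2.31 (SE 0.23, adjusted p = 0.000103) was the lowest of all 90 genes, a 4.94-fold difference. Cyc1, which carries the haem of cytochrome c1, changed by -1.96 (SE 0.23, adjusted p = 0.000228), and the structural core proteins Uqcrc2 and Uqcrc1 by -1.91 and -1.81. The small subunits Uqcr10, Uqcr11 and Uqcrh did not pass, at -1.15, -0.99 and -1.03. Cycs, the mobile carrier between complexes III and IV, measured 29.0 and 24.9 CPM in sham and 5.62, 7.63 and 6.59 CPM in uIRI. The groups were apart, with a log2 change of -2.02 (SE 0.23, adjusted p = 0.000176).

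In complex IV 11 of the 15 tested genes were lower, 2 were higher, and Cox4i2 and Cox7c did not pass. The median log2 change of -1.17 was the smallest in size of the 5 complexes. Cox4i1, the common form of subunit 4, measured 691 and 617 CPM in sham and 206, 305 and 256 CPM in uIRI, without overlap. Its log2 change was -1.36 (SE 0.28, adjusted p = 0.00369). Of the further common subunits, Cox7a2 changed by -1.49, Cox6a1 by -1.43, Ndufa4 by -1.32, Cox8a by -1.28, Cox7b by -1.16 and Cox6b1 by -1.07. Without sham 1 the calls of these 6 genes were lost, with log2 values of -1.30, -1.25, -1.05, -1.06, -0.98 and -0.96, and that of Cox6b1 also without sham 2, uIRI 1 or uIRI 3 (-1.13, -0.95 and -1.11). Cox7c, which had 13.4 and 10.2 CPM in sham and 7.74, 8.76 and 7.87 CPM in uIRI, reached -0.54 (adjusted p = 0.055). Cox7a2l, which joins complexes III and IV into supercomplexes, measured 145 and 141 CPM in sham and 123, 121 and 129 CPM in uIRI. The groups were apart by little, and the log2 value of -0.20 did not pass (SE 0.17, adjusted p = 0.342).

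In complex V 11 of 15 genes were lower, with a median log2 change of -1.42. Atp5b measured 4370 and 4050 CPM in sham and 750, 1280 and 1180 CPM in uIRI, the largest difference in CPM of these genes, with no overlap. Its log2 change was -1.98 (SE 0.25, adjusted p = 0.000318), and that of Atp5a1 was -1.82 (SE 0.24, adjusted p = 0.000327). As a share of the counts of the 97 genes, Atp5b fell from 16.7 and 17.5% in sham to 11.8, 13.9 and 13.5% in uIRI. The lowest of the complex was Atp5g1, 1 of 3 genes for an identical mature c subunit, at -2.12 (SE 0.29, adjusted p = 0.000443). Atp5e, Atp5j2, Atp5k and Atp5g2 did not pass, with log2 values of -0.57, -0.76, -0.45 and -0.042. Outside the complex, Atp5sl changed by -1.15 and Atp5s by -0.88, and both passed.

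The size of the fall went with the length of the coding sequence. The coding sequences of the 90 genes ran from 156 to 2181 bases, with a median of 438 against 1380 for all tested genes. The median log2 change in uIRI was -1.03 for the 21 genes of up to 300 coding bases, -1.11 for the 25 above that and up to 450, -1.44 for the 22 up to 750 and -1.83 for the 22 longer ones. Among all tested protein-coding genes the same classes had medians of -0.13, -0.15, -0.066 and 0.028, so longer genes were not lower there. Over the 90 genes, which share the same libraries, Pearson's r between the change and log2 coding length was -0.51 and Spearman's rho -0.57. Of the 17 genes that did not pass, 15 had at most 450 coding bases, against 46 of all 90. Passing also depended on the spread, which was pooled over the 3 groups. Without uIRI+MSC 3, a library outside this comparison, 80 genes were called instead of 73. Those added were Cox7c, Ndufa1, Ndufb3, Ndufs6, Uqcr10, Uqcr11 and Uqcrh.

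The choice of scaling bears on these counts. The TMM factors, which scale each library by the bulk of its genes, were 0.706 and 0.766 in sham and 1.03 to 1.22 in the other libraries. With library size alone, the median of all tested genes in uIRI against sham moved from 0.061 to 0.73, and that of the 90 genes from -1.32 to -0.65. Then 40 genes were lower and 2 higher, and Atp5e, Atp5g2, Atp5k, Cox7a2l, Cox7c, Ndufa3 and Ndufa7, which had not passed, turned to values above 0. The shares of all tested genes called with that scaling were not taken, so these counts have no share beside them. Fewer genes were called without sham 1, which leaves a lone sham library, and the median of the 90 was then -1.2.

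Markers of cell types differed between the groups too, some lower and some higher in uIRI. All 10 proximal tubule markers were lower in uIRI, and their summed level was 50800 and 37500 CPM in sham, 1840, 6660 and 4490 CPM in uIRI, and 13900, 9990 and 9810 CPM in uIRI+MSC. The library uIRI 1 was the lowest of its group in that sum, and it was the lowest of its group in 86 of the 90 oxidative phosphorylation genes, which held for 38.5% of all tested genes. Of the thick ascending limb list 4 of 5 were lower. Its summed level was 11100 and 13500 CPM in sham and 2220, 3170 and 3520 CPM in uIRI. In uIRI+MSC it was 2100, 999 and 3080 CPM, not above uIRI as for the proximal tubule. Markers of the distal convoluted tubule (2 of 3) and collecting duct (5 of 5) were lower in uIRI too, with median log2 changes of -2.59 and -2.84. Of 4 endothelial markers 1 was lower and 0 higher, with a median of 0.17. All 7 macrophage and all 6 fibroblast markers were higher in uIRI. Summed levels were 172 to 220 CPM in sham and 1550 to 2090 CPM in uIRI for macrophages. For fibroblasts they were 268 and 390 against 3370 to 8120 CPM. The part of the cell mixture in the lower levels was not tested. Skeletal muscle markers, which could come with adhering tissue, summed to 1.17 to 3.85 CPM in every library, with Myh1 and Myh4 at 0 counts. White fat markers summed to 0 to 4.37 CPM, with Lep at 0 counts. Brown fat markers summed to 4.11 to 12.0 CPM. Nearly all of that sum was Ppargc1b (3.84 to 12.0 CPM), which is also among the listed regulators of the pathway, so it is not read as brown fat.

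Other gene lists were set beside these genes. Of 13 protein genes of mitochondrial DNA, whose products join complexes I, III, IV and V, 12 were lower in uIRI with a median log2 change of -2.53. Of 77 genes for mitochondrial ribosomal proteins, 61 were lower and 0 higher, with a median of -0.87. Of 92 tested genes for cytosolic ribosomal proteins, which are short as well, 1 was lower, against 26.3% of all tested genes, and 20 were higher, against 28.3%, with a median of 0.39.

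Less abundant isoforms of several subunits did not follow the common forms. Some subunits have a second gene whose product is known from muscle, lung, testis or hypoxic cells. Cox6b2, the form known from testis, lies at chr7:4751792-4753094 on the minus strand (GRCm38) and measured 3.59 and 2.03 CPM in sham and 9.87, 10.5 and 10.3 CPM in uIRI. All 3 uIRI libraries were above sham, with a log2 change of 1.86 (SE 0.58, adjusted p = 0.0235). Ndufa4l2, known as a gene induced by hypoxia, lies at chr10:127514939-127517152 on the plus strand and measured 4.08 and 5.16 CPM in sham and 7.78, 8.51 and 8.57 CPM in uIRI. The groups were apart here too, with a log2 change of 0.84 (SE 0.26, adjusted p = 0.0233). The call of Cox6b2 was lost without sham 1 (adjusted p = 0.0561) or sham 2 (0.138), and that of Ndufa4l2 without sham 1 (0.137), uIRI 2 (0.0529) or uIRI 3 (0.0541), in edgeR. Both stayed far less abundant than their counterparts, at mean levels of 17.5 against 194 CPM per kilobase for Cox6b2 and Cox6b1 in uIRI. Among the tested neighbours of Cox6b2 on the chromosome, Il11, Brsk1 and Tmem150b were also higher, by 2.73, 2.66 and 2.28 on the log2 scale, and Suv420h2 did not pass (-0.15, adjusted p = 0.532). Ndufa4l2 shares 2.92% of its exon length with Shmt2 on the opposite strand, which changed by -2.53. Of its other neighbours, Stac3 and Lrp1 were higher, by 1.89 and 3.06, and R3hdm2 and Nxph4 lower, with changes of -0.51 and -4.26.

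Within each library, the ratio of counts of the rarer to the common form removes the scaling of the library. The log2 ratio of Cox6b2 to Cox6b1 was -6.18 and -6.80 in sham and -3.31, -3.67 and -3.61 in uIRI, a mean difference of 2.96. For Ndufa4l2 to Ndufa4 it was -5.86 and -5.08 in sham and -3.16, -3.52 and -3.28 in uIRI, a difference of 2.15. The ratio was also higher in every uIRI library than in sham for Atp5g2 to Atp5g3, by 1.75, and for Cox4i2 to Cox4i1, by 1.63, although Atp5g2 and Cox4i2 themselves did not pass. Cox4i2 had 7 and 10 counts in sham, 37, 22 and 19 in uIRI and 18, 4 and 10 in uIRI+MSC. Its log2 value in uIRI against sham was 0.30, against -1.36 for Cox4i1. That ratio thus rests on few counts and largely on the fall of Cox4i1. For Cox6a2, with 5 and 2 counts in sham and 9, 4 and 7 in uIRI, the ratio to Cox6a1 rests largely on the prior count of 2 and on the fall of Cox6a1, and no shift is read from it. Atp5g2 measured 2.82 and 3.87 CPM in sham and 2.93, 2.93 and 3.91 CPM in uIRI, so the groups overlapped while Atp5g3 changed by -1.74. How reads that match several genes were counted is not stated. That may bear on the low levels of genes such as Atp5g2 and Cox7c, and was not tested. Atp5g1 to Atp5g3 moved the other way, by -0.38. Cox7a1, the muscle form of subunit 7a, changed by -1.50 (SE 0.53, adjusted p = 0.0389), near the -1.49 of Cox7a2, and their ratio overlapped between the groups. The call of Cox7a1 was lost without sham 1, sham 2, uIRI 1 or uIRI 3, with adjusted p-values of 0.0712 to 0.147. Of the 6 pairs without Cox6a2, 5 separated uIRI from sham, each with a two-sided exact permutation p of 0.2, the smallest that 3 against 2 libraries allow, and 0.233 after adjustment over all 7 pairs.

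**Figure D2:**
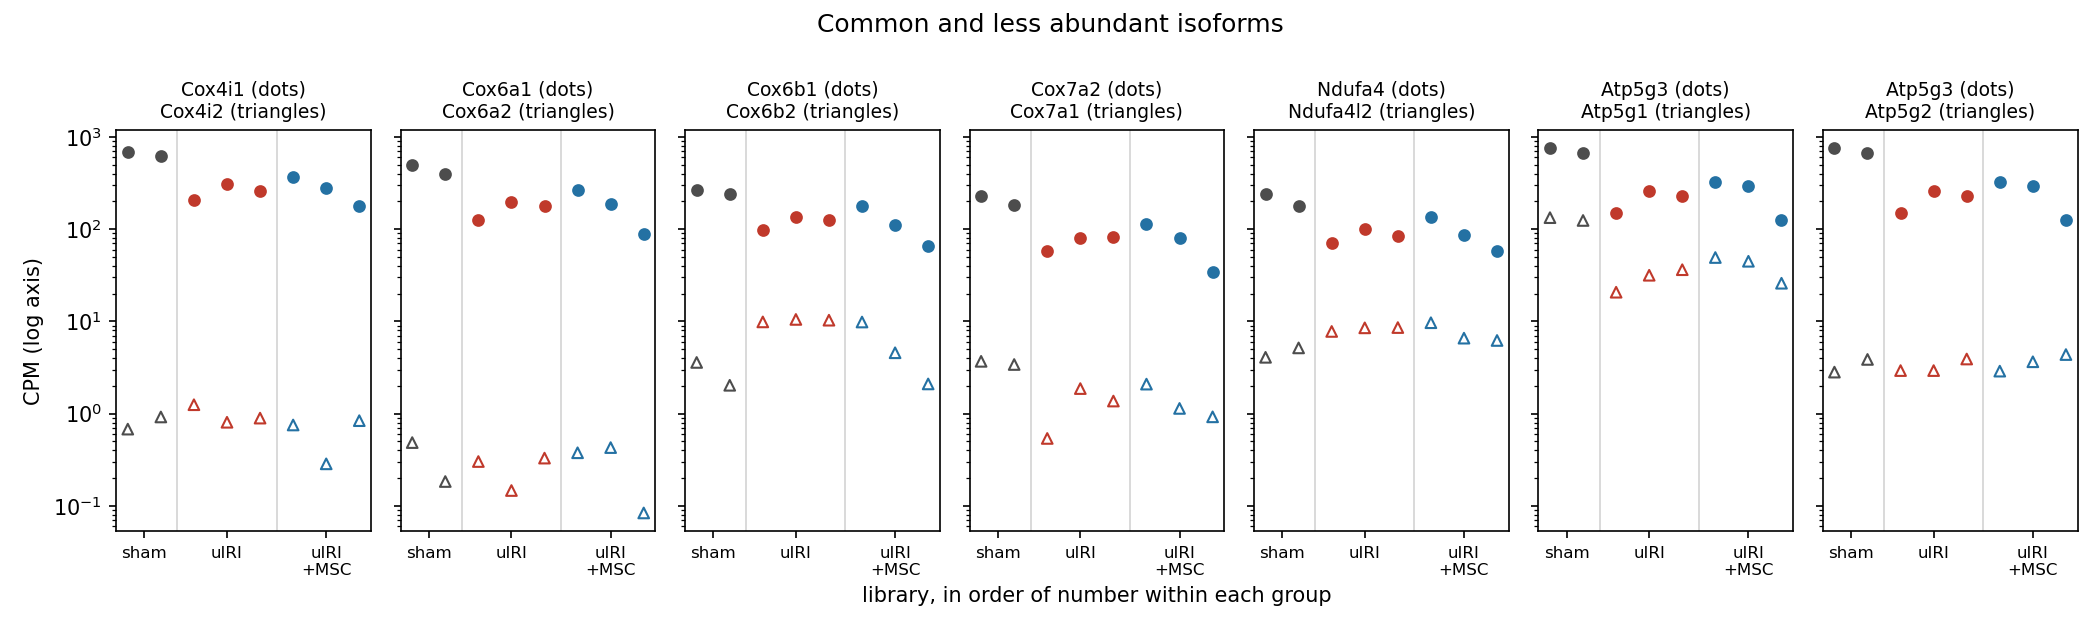
CPM (log axis) in each library of the common isoform (dots) and the less abundant isoform (triangles) of 7 pairs, with libraries in order of number within sham (grey), uIRI (red) and uIRI+MSC (blue). The common forms are lower in every uIRI library than in sham, while Cox6b2 and Ndufa4l2 are higher and Atp5g2 overlaps.

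Setting uIRI+MSC against sham asks how far the genes still differed from sham after the cells were given. Of the 90 genes, 71 were lower, 0 were higher and 19 did not pass in edgeR. At an unadjusted p under 0.05, 1 was higher, and DESeq2 and limma-voom called 0 higher. Among all tested genes 20.3% were lower and 22.1% higher. The median log2 change was -1.26 over the 90 genes and 0.035 over all tested genes, and in 80 genes all uIRI+MSC libraries lay below sham, against 31.2% of all tested genes. This comparison shares its sham libraries with the one before, and 69 genes were lower in both. Fewer genes were called without sham 1, which leaves a lone sham library. With library size alone the median was -0.74 over the 90 genes and 0.55 over all tested genes. Then 40 genes were lower and 2 higher (Cox6b2 and Ndufa4l2), and the shares of all tested genes called were not taken. The same 2 genes were higher without uIRI+MSC 3, where 71 were lower.

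By role, the medians in uIRI+MSC against sham were -1.34 for the core of complex I, -1.20 for its supernumerary subunits, -1.44 for complex II, -1.33 for complex III, -1.23 for complex IV, -1.18 for complex V and -1.05 for the Ndufaf factors. Uqcrfs1 was again the lowest, with 194, 197 and 136 CPM in uIRI+MSC and a log2 change of -1.73 (SE 0.23, adjusted p = 0.000691). Atp5g1 and Cyc1 followed at -1.68 and -1.62. Cycs came next, with 8.77 ± 1.93 CPM (SD, n = 3) and a change of -1.61 (SE 0.23, adjusted p = 0.000964). Uqcrfs1 and Cycs were below sham in all 3 libraries. Cox6b2, at 9.84, 4.57 and 2.10 CPM, overlapped with sham and did not pass (log2 value 1.00, adjusted p = 0.189). Ndufa4l2, at 9.67, 6.58 and 6.21 CPM, was above sham in all 3 libraries but did not pass either (0.70, adjusted p = 0.0577).

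Setting uIRI+MSC against uIRI asks what differed in the injured kidney when cells were given. No gene passed, neither among the 90 nor among all 16576 (0.0% called), in edgeR's quasi-likelihood test. At an unadjusted p under 0.05, 12 of the 90 genes were higher and 0 lower, while 11.3% of all tested genes were higher at that level. In 15 of the 90 all uIRI+MSC libraries were above all uIRI libraries, against 14.1% of all tested genes, and in 1 (Cox6b2) they were all below. By the shares of higher genes, the 90 lay close to the table as a whole. Of all tested genes, 3418 had an unadjusted p under 0.05 in edgeR, 1869 of them higher and the rest lower. None of the 90 was lower at that level, so in that direction they differed from the table. The median log2 value was 0.13, against -0.0079 over all tested genes. DESeq2 called 5 of the 90 higher and 0 lower, and 4.79% of all tested genes higher, while limma-voom called 0 of the 90.

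The values differed by role. The median log2 value of uIRI+MSC against uIRI was 0.45 for complex II and 0.33 for the core of complex I, and each of those 4 and 7 genes lay above 0. It was 0.41 for Cycs, 0.13 for complex V, 0.072 for complex III, 0.028 for the supernumerary subunits of complex I, -0.026 for complex IV and -0.037 for the Ndufaf factors. Roles also differed in coding length, with 636 to 2181 bases in the core of complex I and 189 to 516 in the tested genes of complex IV. Over the 90 genes, the median was -0.17 up to 300 coding bases and 0.43 above 750. Role and coding length were not separated. The 5 genes that DESeq2 called are named here after their values were seen. Ndufs1 measured 77.6, 128 and 113 CPM in uIRI and 163, 167 and 167 CPM in uIRI+MSC, so all 3 were above uIRI and below sham. Its log2 value was 0.64 in edgeR (SE 0.18, adjusted p = 0.124) and 0.62 in DESeq2 (adjusted p = 0.027). Uqcrc2 measured 142, 208 and 190 CPM in uIRI and 274, 272 and 272 CPM in uIRI+MSC, a log2 value of 0.60 in edgeR (adjusted p = 0.123). The groups were apart for both. Exons of Uqcrc2 and Ndufb5 overlap Pdzd9 and Mrpl47 on the opposite strand over 19.7 and 12.3% of their length. Ndufb5, Ndufaf1 and Ndufv2 stood at 0.55, 0.50 and 0.46 in edgeR, with adjusted p-values of 0.111, 0.122 and 0.126. Atp5b, at 1730, 1590 and 1380 CPM in uIRI+MSC, was above all 3 uIRI libraries, with a log2 value of 0.55 (SE 0.23, adjusted p = 0.227). At the other end Cox6b2 had -0.86, Atp5k -0.51 and Ndufa3 -0.39, none of which passed.

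**Figure D3:**
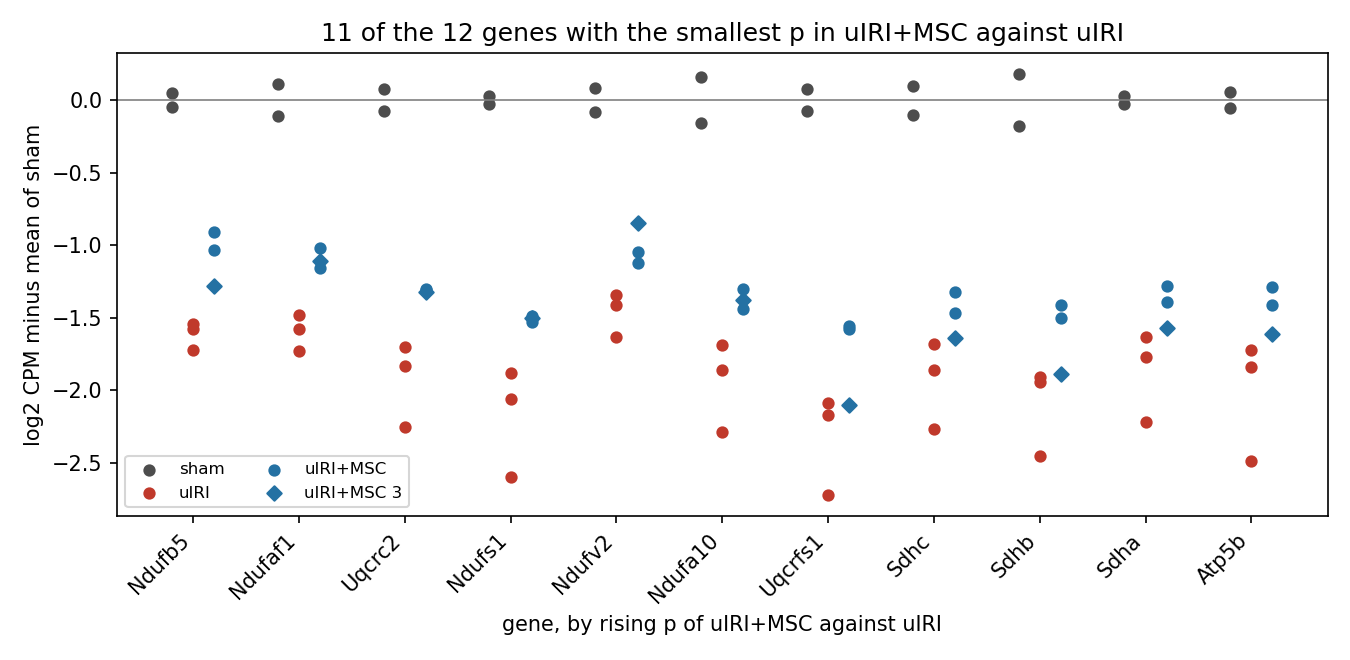
Log2 CPM minus the mean of sham (y axis) in each library for 11 of the 12 genes with the smallest p in uIRI+MSC against uIRI (x axis), chosen after their values were seen; grey is sham, red uIRI, blue uIRI+MSC, and the diamond uIRI+MSC 3. In 10 of the 11 plotted genes all blue points lie above all red points, Uqcrfs1 being the exception, and all lie below sham.

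The library uIRI+MSC 3 stood apart from the other two of its group. It was the lowest of the group in 77 of the 90 genes, against 39.9% of all tested genes. It was the lowest of all 8 libraries in 50 of the 90, against 2348 of all 16576 tested genes. The library uIRI 1 was the lowest of all 8 in 34 of the 90, against 3537 of all tested genes. The median of the 90 genes relative to the mean of sham was -0.84, -1.19 and -1.83 in uIRI+MSC 1, 2 and 3, and -1.63, -1.15 and -1.24 in uIRI 1, 2 and 3. The range within uIRI+MSC thus spanned that of uIRI. Atp5k, a small subunit of complex V, measured 20.6, 9.51 and 3.19 CPM in uIRI+MSC 1, 2 and 3. Uqcr11, a small subunit of complex III, measured 56.6, 31.4 and 8.31 CPM. Ndufv2 measured 80.4, 76.7 and 92.3 CPM, so uIRI+MSC 3 was the highest of its group there.

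**Figure D4:**
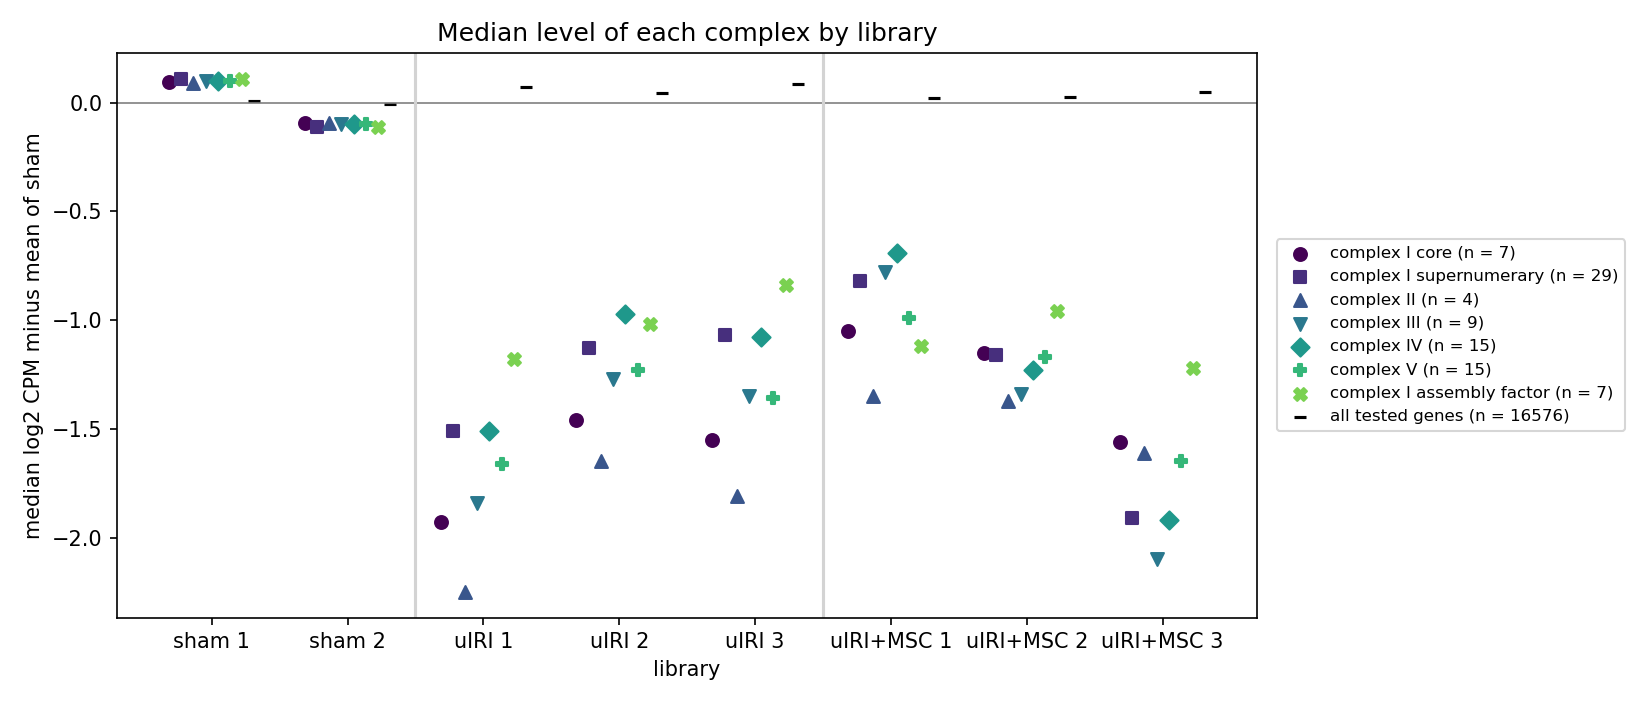
Median over the genes of each role of log2 CPM minus the mean of sham (y axis) in each of the 8 libraries (x axis), with the median of all tested genes as a dash. Of the roles plotted, complex II lies lowest in uIRI 1, 2 and 3 (-2.25, -1.65 and -1.81), while in uIRI+MSC 3 (-1.61) complex III (-2.10), complex IV (-1.92), the supernumerary subunits of complex I (-1.91) and complex V (-1.65) lie below it.

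The low values of uIRI+MSC 3 were found mainly among short coding sequences. For genes of up to 300 coding bases the median relative to sham was -0.51, -1.25 and -2.20 in uIRI+MSC 1, 2 and 3, while above 750 bases it was -1.24, -1.36 and -1.56. All tested protein-coding genes of up to 300 bases also had a lower median in uIRI+MSC 3, at -0.62, against -0.091 and -0.25 in the 2 others, and those of 750 to 2500 bases had 0.045. Over the 90 genes, r between log2 coding length and the value relative to sham was -0.54, -0.22 and 0.27 in uIRI+MSC 1, 2 and 3. For the change from uIRI to uIRI+MSC it was 0.69 with all libraries and 0.49 without uIRI+MSC 3. It was 0.61 after the trend of all genes with transcript length was removed from each library. A trend with coding length was not removed. The share of counts from mitochondrial DNA was also highest in that library, with 11.3% against 6.07 and 6.24% in the others, 3.49 to 4.84% in uIRI and 14.2% in both sham libraries. The cytosolic ribosomal protein genes had a median relative to sham of -0.42 there, against 0.32 and 0.23. The sum of proximal tubule markers, at 9810 CPM, was close to the 9990 CPM of uIRI+MSC 2. What set this library apart was not tested.

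**Figure D5:**
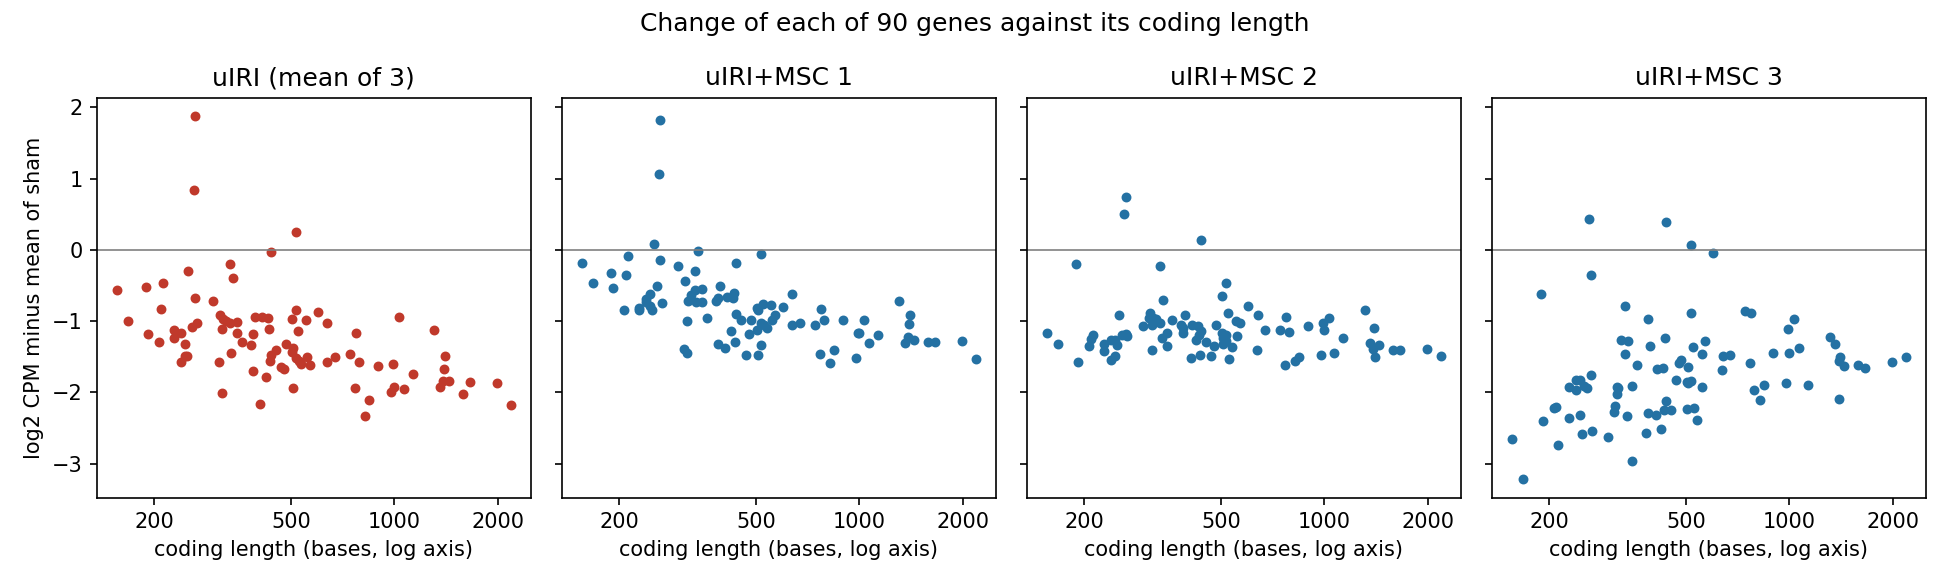
Log2 CPM minus the mean of sham (y axis) against coding length in bases (x axis, log scale) for the 90 genes, as the mean of the uIRI libraries and in each uIRI+MSC library. The points fall with length in uIRI and uIRI+MSC 1 (r = -0.54 in the latter) and rise with length in uIRI+MSC 3 (r = 0.27).

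Without uIRI+MSC 3, no gene of the 90 passed in uIRI+MSC against uIRI, and 26 were higher at an unadjusted p under 0.05, against 12.0% of all genes tested then. The median of the 90 was 0.30, and 81 lay above 0, compared with 57 with all libraries. By role the medians were then 0.50 for the core of complex I, 0.25 for its supernumerary subunits, 0.53 for complex II, 0.39 for complex III, 0.27 for complex IV and 0.40 for complex V. Without uIRI 1, which was the lowest of its own group, the median of the 90 was -0.029 and 42 lay above 0. Without uIRI+MSC 1 it was -0.11 and 38 lay above 0. The median of all tested genes was 0.0022, -0.0057 and -0.0081 without uIRI+MSC 3, uIRI 1 and uIRI+MSC 1 in turn. Their share above 0 was not taken, and none of the 90 passed in any of these fits. Complex II and the core of complex I kept medians above 0 in each of these 3 cases, with 0.29 and 0.20 without uIRI 1 and 0.39 and 0.20 without uIRI+MSC 1. So did Cycs, at 0.59, 0.30 and 0.33 without uIRI+MSC 3, uIRI 1 and uIRI+MSC 1 in turn. Complex V (0.40, 0.023 and 0.024) and Atp5s with Atp5sl (0.19, 0.22 and 0.37) also stayed above 0.

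Among the isoform pairs, the log2 ratio of Cox6b2 to Cox6b1 was -4.16, -4.56 and -4.90 in uIRI+MSC, below the -3.31 to -3.67 of uIRI and above sham. The mean difference from uIRI was -1.01, with a two-sided exact permutation p of 0.1, the smallest that 3 against 3 libraries allow, and 0.7 after adjustment over the 7 pairs. The other 6 pairs overlapped between uIRI and uIRI+MSC, with differences from -0.71 (Cox4i2 to Cox4i1) to 0.29 (Cox7a1 to Cox7a2).

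Regulators of the pathway were lower as well. Of 13 listed genes, 8 were lower in uIRI than in sham and 1 was higher, with a median log2 change of -1.05. Ppargc1a, which encodes the coactivator PGC-1alpha, measured 99.4 and 140 CPM in sham, 24.4, 38.3 and 43.1 CPM in uIRI and 45.9, 50.7 and 81.8 CPM in uIRI+MSC. All uIRI libraries were below sham, with a log2 change of -1.76 (SE 0.31, adjusted p = 0.00147), and all uIRI+MSC libraries lay between, with 0.75 against uIRI (adjusted p = 0.189). The receptors that work with it, Esrra, Esrrb and Esrrg, changed by -1.63, -3.57 and -1.14 in uIRI, and Tfam, which packages and transcribes mitochondrial DNA, by -1.05. Nrf1 and Yy1 had log2 values of 0.30 and -0.083 and did not pass, nor did Gabpa at -0.50. Pprc1, a relative of Ppargc1a, was higher, at 0.59 (adjusted p = 0.0382).

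Letters that match the sites of these factors were looked for in promoters from RefSeq (GRCm38.p6), on both strands of the 250 bases before and 50 after each start. Of the 97 genes, 77 had an entry, and 75 of these were tested. The NRF1 letters GCATGCGC stood in 17.3% of the 75, against 4.76% of the promoters of all 12367 tested genes with an entry. The shares were 9.33 and 2.75% for the YY1 letters AAGATGGCG, 21.3 and 16.2% for the ETS letters CCGGAAG that GABP is known to bind, and 2.67 and 0.243% for the ERR letters TCAAGGTCA. No motif holds another, and their matches may overlap. At least 1 of the 4 stood in 42.7% of the 75 and in 22.2% of all. The median log2 change in uIRI against sham was -0.99 for the 13 genes with NRF1 letters and -1.30 for the 62 without. It was -1.17 with and -1.31 without YY1 letters (7 and 68 genes), -1.31 with and -1.21 without ETS letters (16 and 59), and -1.70 with and -1.28 without ERR letters (2 and 73). A match is a description of the letters and not of binding.

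Promoter stretches of 110 bases that end just before the RefSeq start are given for 3 genes, as examples of such letters in genes that were lower in uIRI, with an NRF1, an ETS and an ERR match in turn. Sdhd and Atp5g3 are the 2 tested genes with ERR letters, and those of Sdhd lie outside the stretch shown. The capitals mark the match, which in Sdhd and Atp5g3 stands on the other strand. They are read 5′ to 3′ in the direction of the gene, from chr6:50566570-50566679 for Cycs, chr9:50603850-50603959 for Sdhd and chr2:73911327-73911436 for Atp5g3, all on the minus strand.
Cycs: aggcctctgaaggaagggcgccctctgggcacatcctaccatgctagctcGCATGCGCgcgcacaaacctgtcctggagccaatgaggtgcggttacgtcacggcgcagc
Sdhd: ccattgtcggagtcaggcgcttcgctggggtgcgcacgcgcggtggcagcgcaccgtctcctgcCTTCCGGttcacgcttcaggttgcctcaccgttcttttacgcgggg
Atp5g3: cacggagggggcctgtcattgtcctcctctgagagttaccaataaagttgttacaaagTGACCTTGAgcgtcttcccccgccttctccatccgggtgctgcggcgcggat
These 3 genes changed by -2.02, -1.66 and -1.74 in uIRI against sham, as given above. Their first matching base stands 60, 46 and 52 bases before the start.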

How the data were processed

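RNA of 8 kidney libraries was analysed from a table that gives a count and an FPKM value per gene and library. Per the file headers, the authors deposited raw read counts per gene, and the FPKM values are these counts scaled by the authors for gene length and depth. The submitters' processing notes list HISAT2 2.0.4 and Bowtie2 2.2.6 among the tools, with StringTie 1.3.3b, SAMtools 1.9, edgeR 3.2.0, FastQC 0.10.1 and the build GRCm38. No source used here gives the counting program, the strand setting, the treatment of reads that match several genes or the annotation release. The length that the deposited FPKM implies was within 2% of the sum of all distinct exons of a gene in 71.6% of 16261 genes, which understates genes with several transcripts. Levels between genes are therefore CPM per kilobase of the principal GENCODE M21 transcript, and FPKM served for a single alternative.

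Genes were filtered with filterByExpr (minimum count 10), scaled by TMM and fitted over all 8 libraries with edgeR 4.0.16 under R 4.3.3 (glmQLFit with legacy=TRUE, glmQLFTest, 5 residual degrees of freedom, no covariate). Adjustment (Benjamini-Hochberg, at 0.05) ran over all 16576 tested genes, and the SE is the log2 change over the square root of F. CPM use the TMM factors, with a prior count of 2 for isoform ratios and for log2 values of a single library. Isoform ratios were compared by exact permutation tests (scipy 1.17.1, two-sided). The fit was tested on simulated data.

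Named with values are isoform pairs, 10 fixed subunits, the 2 lowest and 2 highest genes of a complex and comparison as space allowed, the genes that did not pass in uIRI against sham, and the Ndufaf genes. The genes, lists and tests were chosen with earlier results of these data known. Alternatives were DESeq2 1.42.0, limma-voom (limma 3.58.1), other scalings and filters, a fit of only 2 groups, a replicate block and leaving out each library. Removal of each library's transcript length trend was added after seeing the data. Genes without a promoter entry include Atp5a1, Atp5k-ps2, Atp5l-ps1, Atp5l-ps2, Cox4i1, Cox4i2, Cox6a2, Cox6c, Cox8c, Cyc1, Ndufa2, Ndufa4l2, Ndufaf6, Ndufb9, Ndufs1, Sdhc, Uqcrb, Uqcrc2 and Uqcrq. A gene that the rule takes in is not reported here. Figures were drawn with matplotlib 3.10.9.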

Additional observations from a re-analysis of the deposited data

How the results depend on the processing

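The 73 genes called in uIRI against sham were all called again with DESeq2, limma-voom, median-of-ratios scaling, no filter and the filter of 50 counts in 2 libraries. With library size alone, 40 were lower, and log2 values turned above 0 for Atp5e (0.098), Atp5g2 (0.62), Atp5k (0.22), Cox7a2l (0.47), Cox7c (0.13), Ndufa3 (0.37) and Ndufa7 (0.27). In uIRI+MSC against sham it gave 40 lower and 2 higher and a value of 0.16 for Cox4i2. With the transcript length trend removed, 1 gene was higher there, and Ndufaf5 had 0.020 in uIRI+MSC against uIRI. In that comparison DESeq2 called 5 higher, and a prior count of 0.5 gave the Cox6a2 to Cox6a1 ratio a difference of -0.017.

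Leaving out each library in turn gave 47 to 78 lower and 0 to 2 higher in uIRI against sham, and 36 to 81 lower and 0 to 2 higher in uIRI+MSC against sham. The lowest counts came without sham 1. Leaving out either sham library leaves a lone one, whose spread is taken from the other groups. The median of the 90 genes relative to the mean of sham was 0.1 in sham 1 and -0.1 in sham 2. Ranges that cross 0 were -0.23 to 0.23 for Atp5g2 in uIRI against sham and -0.066 to 0.39 against sham in uIRI+MSC. In uIRI+MSC against uIRI they were -0.097 to 0.45 for Cox5a, -0.27 to 0.60 for Cox7a1, -0.95 to 0.12 for Ndufa2, -0.48 to 0.099 for Ndufaf2, -0.23 to 0.12 for Ndufaf3, -0.42 to 0.14 for Ndufaf4, -0.15 to 0.036 for Ndufaf5, -1.0 to 0.16 for Uqcr11 and -0.71 to 0.072 for Uqcrh. For isoform ratios they were -0.57 to 0.41 (Atp5g2 to Atp5g3) and -0.35 to 0.31 (Cox6a2 to Cox6a1) in uIRI+MSC against uIRI. For Cox7a1 to Cox7a2 they were -0.35 to 0.24 in uIRI against sham, -0.051 to 0.43 in uIRI+MSC against sham and -0.022 to 0.57 in uIRI+MSC against uIRI. The cause was not tested.

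With the replicate number as a replicate block, 56 genes were lower and 1 higher in uIRI against sham, 60 lower in uIRI+MSC against sham, and 0 called in uIRI+MSC against uIRI. Atp5g2 then had -0.028 in uIRI+MSC against sham. Deviations of the 7 pairs of libraries with the same number correlated at -0.209 to 0.111, over 0.1 in 1 pair, so the numbers were not taken to pair libraries. With 2 sham libraries and totals of 11592986 to 24300112 counts, the spread between libraries limits what could be called.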
